A study of Mus musculus with 6 samples.

Results

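Sgk1 and Sgk3 encode serum- and glucocorticoid-regulated kinases, and both were higher in the hippocampus of CORT-treated mice than in that of vehicle-treated mice. The pair was picked by gene name from a table of 2404 genes, with their higher level under CORT already known. Their difference between the groups is therefore given here as a description, with no test. Hippocampal RNA was measured by RNA-seq in 3 vehicle and 3 CORT libraries, which the labels call biological replicates. According to the methods, the mice were male C57BL/6 animals, 7 to 8 weeks old when they were divided into groups. CORT stands for corticosterone, which the adrenal gland of rodents releases in stress, and was injected under the skin at 40 mg/kg each day over 36 days. The vehicle group received the solution of DMSO, Tween and water alone. In the labels the CORT treatment is written as cortisone. The table lists only genes for which the authors obtained a p-value under 0.05 between these same groups, and a gene outside it was not analysed here. Its levels are TPM, which correct for transcript length and for the total of each library, so levels of different genes can be set side by side. TPM keeps no read number, so the depth behind each value is unknown.

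The SGK kinases belong to the AGC family of protein kinases and resemble AKT in their catalytic domain. Phosphoinositide 3-kinase signalling switches them on through PDK1 and the mTORC2 complex, and they phosphorylate many of the motifs that AKT also recognises. SGK1 is controlled to a large part by the amount of its mRNA, and Sgk1 is a classical target gene of the glucocorticoid receptor. SGK3 differs by an amino-terminal PX domain that binds a phosphoinositide on endosomes, and is regarded as less dependent on hormone-driven transcription. In rodent brain, Sgk1 is known to respond to stress and glucocorticoids, in oligodendrocytes among other cells.

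The RefSeq start-site windows of Sgk1 are shown because 1 of them holds the DNA element that the glucocorticoid receptor binds. A window runs from 250 bases before to 50 bases after an annotated start, on build GRCm38.p6, an earlier build than the GRCm39 named in the submitters' processing notes. Of the 2 kinases only Sgk1 was matched in the RefSeq table, with 6 windows on the plus strand of chromosome 10. The windows were searched for AGAACA and TGTTCT with any 3 bases between them, the full palindromic glucocorticoid response element, and for either of its arms alone (AGAACA or TGTTCT). Each arm is the other read on the opposite strand, so both strands were covered. A full element contains both arms and so counts for both searches. In the fifth window (chr10:21993640-21993939, plus strand) the full element is in capitals. In the sixth (chr10:21994416-21994715, plus strand) the capitals mark TATAAA, which was searched on the strand of the gene.
Sgk1 window 5: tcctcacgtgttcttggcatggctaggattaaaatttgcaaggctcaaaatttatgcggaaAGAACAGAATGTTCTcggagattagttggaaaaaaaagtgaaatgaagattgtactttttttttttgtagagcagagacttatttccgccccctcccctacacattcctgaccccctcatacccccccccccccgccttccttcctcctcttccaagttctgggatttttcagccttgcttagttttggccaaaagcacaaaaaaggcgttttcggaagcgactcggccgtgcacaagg
Sgk1 window 6: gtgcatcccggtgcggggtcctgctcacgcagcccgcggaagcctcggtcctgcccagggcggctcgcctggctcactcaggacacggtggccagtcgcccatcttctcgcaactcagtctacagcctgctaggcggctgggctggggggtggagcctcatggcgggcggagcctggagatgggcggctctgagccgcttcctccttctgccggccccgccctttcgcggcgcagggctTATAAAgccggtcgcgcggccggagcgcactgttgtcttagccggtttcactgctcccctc
The element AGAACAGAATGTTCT lies at chr10:21993701-21993715, with its centre 182 bases before the annotated start. The full element was found in 3 of 32851 RefSeq windows (0.00913%), and among the 2403 windows of listed genes only in the fifth window of Sgk1. At least 1 arm was present in 3 of the 6 Sgk1 windows (windows 1, 4 and 5). The share was 19% of all windows and 12.6% of the windows of listed genes. Only exact sequences were searched, so elements that depart from them were not counted in any gene. Window 6 held neither arm. TATAAA occurred in windows 4 and 6, against 8.32% of all windows and 4.12% of the windows of listed genes. The matches are descriptions of sequence, and the deposited levels are per gene, so that the starts cannot be told apart.

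Sgk1 (ENSMUSG00000019970), the kinase named for its induction by serum and glucocorticoids, had 84.71, 54.83 and 109.76 TPM in vehicle replicates 1, 2 and 3. The CORT replicates 1, 2 and 3 gave 221.97, 203.9 and 150.13 TPM. The groups did not overlap, as was the case for 69.8% of the genes tested, and the lowest CORT level was 1.37 times the highest vehicle level. The mean was 83.1 ± 27.5 TPM (SD, n = 3) in the vehicle group and 192.0 ± 37.4 TPM (SD, n = 3) in the CORT group, a 2.31-fold difference of the means. On the log2(TPM + 1) scale the log2 fold change of Sgk1 was 1.23 (SE 0.28, limma). This SE was the 36th largest among the 2241 genes tested, those with at least 1 TPM in at least 3 libraries. Relative to the group mean, Sgk1 varied more in the vehicle group (SD 33.1% of the mean) than in the CORT group (19.5%). In the vehicle group the highest library had 2.0 times the level of the lowest, and vehicle replicate 2 was the lowest.

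Sgk3 (ENSMUSG00000025915), the endosomal member of the family, had 3.29, 2.39 and 3.73 TPM in vehicle replicates 1, 2 and 3. The CORT replicates 1, 2 and 3 gave 19.32, 17.19 and 12.71 TPM. The lowest CORT level was 3.41 times the highest vehicle level, a wider gap than that of Sgk1. The mean was 3.14 ± 0.683 TPM (SD, n = 3) in the vehicle group and 16.4 ± 3.37 TPM (SD, n = 3) in the CORT group, a 5.23-fold difference of the means. The log2 fold change of Sgk3 on the log2(TPM + 1) scale was 2.07 (SE 0.17), a scale that understates the change of a gene with so low a vehicle level. By log2 fold change Sgk3 ranked 5th from the top of the 2241 genes tested and Sgk1 ranked 32nd. By mean level Sgk3 moved from place 2025 of the 2404 listed genes under vehicle to place 1299 under CORT, and Sgk1 from place 393 to place 185. A gap between the groups was common in this table, with the CORT libraries wholly above in 35.4% of the genes tested and wholly below in 34.4%. Nothing is therefore read from the gap of either kinase.

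**Figure D1:**
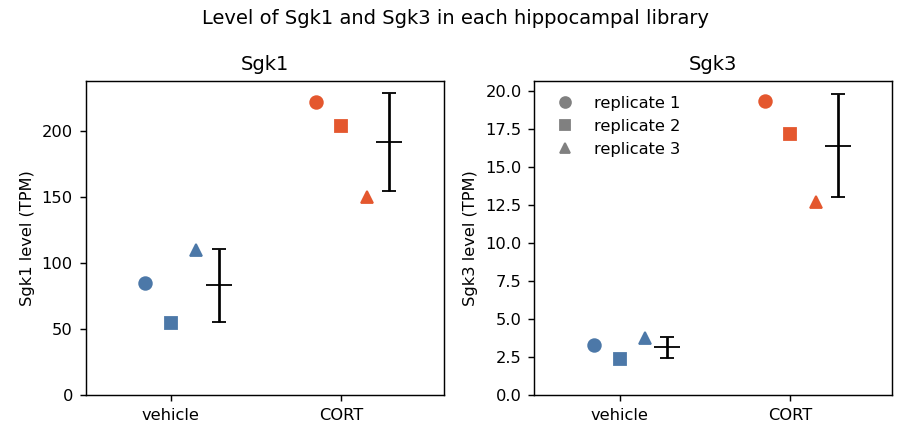
TPM of Sgk1 (left) and Sgk3 (right) in each of the 3 vehicle (blue) and 3 CORT (red) libraries, with the mean and SD of each group in black. Sgk1 lies between 54.83 and 109.76 TPM in vehicle and between 150.13 and 221.97 TPM in CORT, and Sgk3 between 2.39 and 3.73 TPM and between 12.71 and 19.32 TPM.

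The balance between the kinases differed between the groups, although Sgk1 stayed by far the more abundant. Sgk3 stood at 3.88%, 4.36% and 3.4% of the Sgk1 level in vehicle replicates 1, 2 and 3, and at 8.70%, 8.43% and 8.47% in CORT replicates 1, 2 and 3. The group means were 3.88% ± 0.481 (SD, n = 3) and 8.53% ± 0.149 (SD, n = 3), with no overlap. Put the other way, Sgk1 had 26.0 ± 3.25 times (SD, n = 3) the TPM of Sgk3 under vehicle and 11.7 ± 0.201 times (SD, n = 3) under CORT. The share in the CORT group kept to a narrow range of 8.43% to 8.70%, while Sgk1 itself ranged 1.48-fold and Sgk3 1.52-fold over the same 3 libraries. In the vehicle group the share was lowest where Sgk1 was highest, in replicate 3, and highest where Sgk1 was lowest, in replicate 2. Sgk1 is the divisor of the share, so this inverse order is partly built into the measure. The summed level of both kinases was 86.2 ± 28.2 TPM (SD, n = 3) under vehicle and 208 ± 40.7 TPM (SD, n = 3) under CORT. Because both genes were chosen for this contrast, the shift in balance is not tested.

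Libraries of the same treatment were also ordered alike for both kinases. Within the vehicle group both were lowest in replicate 2, intermediate in replicate 1 and highest in replicate 3. Within the CORT group both were lowest in replicate 3, intermediate in replicate 2 and highest in replicate 1. Of the 2241 genes tested, 100 (4.46%), Sgk1 itself included, shared this order in both groups. With 3 libraries a group the shared order is a description only.

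The summed level of the oligodendrocyte markers was lowest in the same libraries, but few of the markers had the order of the kinases throughout. Of 20 such markers, 7 were listed, and their summed TPM was 890, 716 and 993 in vehicle replicates 1, 2 and 3 and 1228, 1276 and 966 in CORT replicates 1, 2 and 3. The sum was thus lowest in vehicle replicate 2 and, within the CORT group, in CORT replicate 3, as were both kinases. Taken singly, 4 of the 7 had the order of the kinases in the vehicle group (57.1%, against 25.5% of all genes tested) and 1 of the 7 in the CORT group (14.3%, against 18.5%). The vehicle order was also that of 3 of 6 astrocyte markers and of both choroid plexus markers. None of these 7 markers was at 0 in any library. They did not move as a block between the groups, with 2 higher, 2 lower and 3 that did not pass in limma, where 25.8% of all genes tested were higher and 24.7% lower. Mobp, a myelin protein, had 559 ± 84.8 TPM (SD, n = 3) under vehicle and 799 ± 148 TPM (SD, n = 3) under CORT, and the lipocalin Apod 199.8 ± 42.8 TPM (SD, n = 3) and 284 ± 22.3 TPM (SD, n = 3). Sox10, the transcription factor of the oligodendrocyte lineage, went from 37.3 ± 6.54 TPM (SD, n = 3) to 17.8 ± 1.10 TPM (SD, n = 3), and the gap junction gene Gjb1 from 19.8 ± 2.70 TPM (SD, n = 3) to 10.7 ± 1.14 TPM (SD, n = 3). These 4 genes were named after their values were seen, and single libraries decided some of their calls. Mobp did not pass without vehicle replicate 1, vehicle replicate 2, CORT replicate 1 or CORT replicate 2 (adjusted p up to 0.128 from limma), nor Apod without any 1 of the CORT libraries (adjusted p up to 0.0939 from limma).

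Relative to the summed TPM of the 7 oligodendrocyte markers, both kinases were still higher in every CORT library. Sgk1 was at 9.52%, 7.66% and 11.1% of that sum in vehicle replicates 1, 2 and 3 and at 18.1%, 16.0% and 15.5% in CORT replicates 1, 2 and 3. Sgk3 was at 0.370%, 0.334% and 0.376% in the vehicle replicates and at 1.57%, 1.35% and 1.32% in the CORT replicates. The log2 difference between groups was 0.83 for Sgk1 by this measure, against 1.23 before, and 1.97 for Sgk3, against 2.07. Mobp and Apod, the 2 markers called higher, made up most of the marker sum. In vehicle replicate 1 they had 552.12 and 225.32 of 890.15 TPM. In CORT replicate 1 they had 883.38 and 273.14 of 1227.9 TPM. Sox10 and Gjb1, the 2 called lower, weigh little in the sum. The measure was chosen after the data were seen, and the markers had themselves been listed for a difference between the groups. In bulk tissue a change in the number of cells of a type and a change in the RNA of each cell cannot be told apart.

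**Figure D2:**
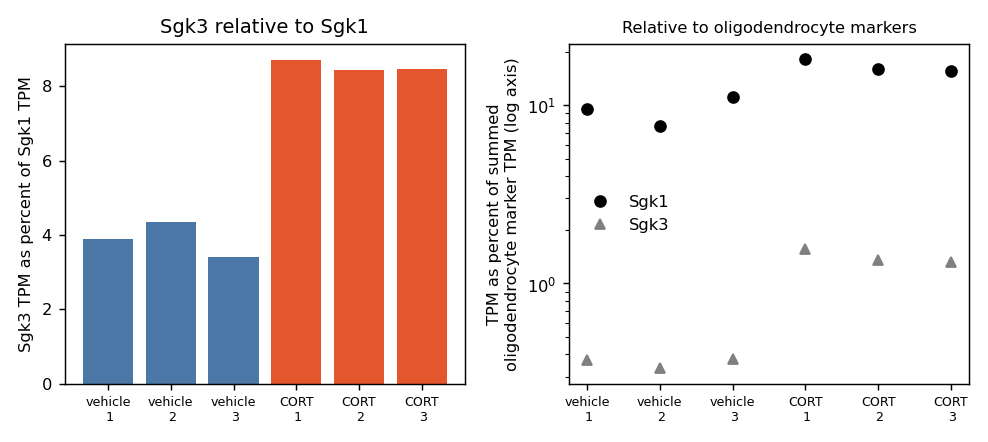
Left, bars give the TPM of Sgk3 as a percentage of the TPM of Sgk1 in each library, 3.4% to 4.36% in vehicle (blue) and 8.43% to 8.70% in CORT (red). Right, points on a log axis give Sgk1 (circles) and Sgk3 (triangles) as a percentage of the summed TPM of 7 oligodendrocyte markers in the same library, with every CORT point above every vehicle point of the same gene.

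Other markers also moved with the treatment, and their part in the kinase values was not tested. In limma 24.7% of all genes tested were lower and 25.8% higher. Among the 8 listed microglial markers (of 14) 6 were lower and 1 was higher, and their summed level was 198 to 217 TPM under vehicle and 129 to 163 TPM under CORT. Of 12 endothelial markers 8 were listed and 6 were lower, with a summed level of 156 to 172 TPM under vehicle and 103 to 109 TPM under CORT. Of 12 astrocyte markers 6 were listed and 2 were lower, with sums of 1664 to 1736 TPM and 1526 to 1542 TPM. Of 10 pericyte markers 3 were listed, and they did not move alike. Rgs5 was higher, Vtn was lower and Pdgfrb did not pass in limma. Their sums, which came mostly from Vtn, were 95.2 to 109 TPM under vehicle and 85.2 to 91.2 TPM under CORT. Of 10 oligodendrocyte precursor markers 1 was listed, Cspg4, with 8.21 to 8.97 TPM and 6.67 to 7.98 TPM. None of the listed markers was at 0 in a library, and the others were not analysed here. The choroid plexus markers Folr1 and Prlr, the 2 listed of 8, summed to 1.76 to 3.97 TPM under vehicle, 4.58 and 3.33 TPM in CORT replicates 1 and 2, and 24.9 TPM in CORT replicate 3. CORT replicate 3 was also the lowest CORT library for both kinases, and without it the log2 fold change was 1.40 for Sgk1 and 2.23 for Sgk3. Of 16 hippocampal subfield markers 6 were listed and 2 were lower in limma. The 2 were C1ql2 of dentate granule cells and Wfs1. C1ql2 went from 95.6 ± 10.4 TPM (SD, n = 3) to 73.1 ± 1.56 TPM (SD, n = 3). Wfs1 went from 130.7 ± 8.72 TPM (SD, n = 3) to 97.4 ± 3.59 TPM (SD, n = 3). Of the 6, 2 had a positive log2 fold change, Dsp (0.18) and Zbtb20 (0.32), and neither passed. These genes were named after their values were seen. The 12 general neuronal markers were not analysed here.

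The genes nearest to Sgk1 in profile were not the same as those nearest to Sgk3. Likeness was measured as the root mean square difference of log2(TPM + 1), each gene centred on its own mean, over the 6 libraries. Nearest to Sgk1 were Plin4 and Mthfd2 (both 0.191 log2 units), Tcim (0.211), Nfkbia (0.230) and Arrdc2 (0.231). Plin4 encodes a lipid droplet coat protein, Mthfd2 a mitochondrial enzyme of folate metabolism, Nfkbia the inhibitor of NF-kB and Arrdc2 an arrestin-domain protein. Plin4 shared the low value of vehicle replicate 2, with 7.06, 3.39 and 7.45 TPM in vehicle replicates 1, 2 and 3 and 12.33, 14.17 and 10.3 TPM in CORT replicates 1, 2 and 3. Nearest to Sgk3 were Cdkn1a (0.186 log2 units), Pla2g3 (0.206), Ada (0.273), Ddc (0.297) and Itgad (0.305). Cdkn1a encodes the cell cycle inhibitor p21, Pla2g3 a secreted phospholipase, Ada adenosine deaminase, Ddc the decarboxylase of dopamine and serotonin synthesis and Itgad an integrin subunit. Cdkn1a had 14.21, 9.76 and 10.97 TPM in vehicle replicates 1, 2 and 3 and 70.7, 63.35 and 49.82 TPM in CORT replicates 1, 2 and 3, so that Cdkn1a and Sgk3 shared the order of the CORT libraries but not that of the vehicle libraries. Sgk1 and Sgk3 differed from each other by 0.442 log2 units, which put Sgk1 at place 18 from Sgk3 and Sgk3 at place 127 from Sgk1 among all genes tested. The measure is set largely by the size of the difference between groups, and genes of like profile share the same 6 libraries.

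**Figure D3:**
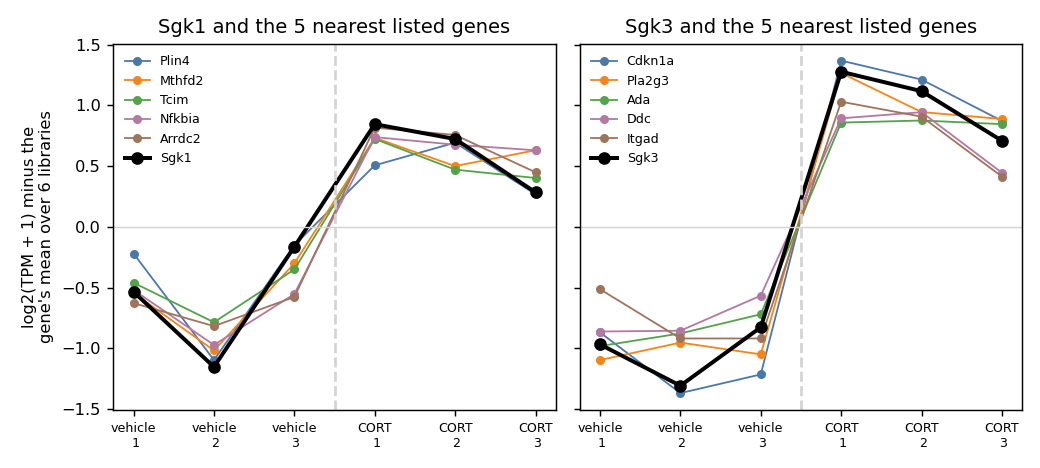
Profiles of Sgk1 (left, black) and Sgk3 (right, black) with the 5 listed genes nearest to each, as log2(TPM + 1) minus the mean of the gene over the 6 libraries. Genes with clone or model names were left out of the choice. Lines only join the points of a gene, the dashed line parts vehicle from CORT, and the root mean square difference is 0.191 to 0.231 for the genes near Sgk1 and 0.186 to 0.305 for those near Sgk3.

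Among the closest relatives of the pair, only Akt2 was listed, and it was lower under CORT. Akt2 is the AKT isoform best known for insulin action, and the other genes of this list of 4 were not analysed here. Akt2 had 66.92, 60.93 and 67.01 TPM in vehicle replicates 1, 2 and 3 and 47.23, 57.93 and 55.18 TPM in CORT replicates 1, 2 and 3. Its level under vehicle was thus between those of Sgk1 and Sgk3 on average. The log2 fold change of Akt2 was -0.28 (SE 0.09, adjusted p = 0.0289 from limma). Of 45 other AGC kinases 12 were listed, of which 2 passed upwards, 1 downwards and 9 in neither direction in limma. Over all genes tested 25.8% were higher and 24.7% were lower, or 50.6% in either direction. The median log2 fold change of these 12 kinases was 0.17, against 0.05 over all genes tested. Mast4, a microtubule-associated kinase, rose from 11.7 ± 1.80 TPM (SD, n = 3) to 16.6 ± 0.471 TPM (SD, n = 3), and Rps6kb1, the S6 kinase downstream of mTOR, from 13.6 ± 0.978 TPM (SD, n = 3) to 16.6 ± 0.920 TPM (SD, n = 3). Rps6ka1, an RSK kinase downstream of ERK, fell from 10.1 ± 1.29 TPM (SD, n = 3) to 6.84 ± 0.717 TPM (SD, n = 3). Stk38l, a kinase of the NDR group, missed the threshold (log2 fold change 0.24, adjusted p = 0.0709 from limma) and passed it without vehicle replicate 3 (adjusted p = 0.0403). Akt2 did not pass without vehicle replicate 1, vehicle replicate 3 or CORT replicate 1 (adjusted p up to 0.0843 from limma). Rps6kb1 did not pass with quantile normalization, with the GC correction or without any 1 of 5 libraries, vehicle replicate 3 being the exception (adjusted p up to 0.596 from limma).

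Upstream of the kinases, 3 of 24 listed activators were in the table, and 1 rose while 1 fell in limma, where 50.6% of all genes tested were called. Irs2, which couples the insulin receptor to phosphoinositide 3-kinase, rose from 32.6 ± 3.66 TPM (SD, n = 3) to 44.4 ± 2.00 TPM (SD, n = 3). Gab1, a docking protein of growth factor receptors, fell from 11 ± 2.55 TPM (SD, n = 3) to 7.73 ± 0.507 TPM (SD, n = 3). Wnk1, a kinase of ion transport that acts above SGK1, had 65.9 ± 7.30 TPM (SD, n = 3) and 76.8 ± 10.3 TPM (SD, n = 3), and its groups overlapped. PDK1 (Pdpk1) and the mTORC2 subunit Rictor were among the 21 activators not analysed here. The call of Gab1 was kept without vehicle replicate 2 and lost when any other single library was left out (adjusted p up to 0.0921 from limma).

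Of 22 genes listed as restraints of this signalling, 9 were in the table, 3 rose, 1 fell and 5 did not pass in limma. The share called is near the 50.6% of all genes tested, and the median log2 fold change was 0.13, against 0.05 over all genes tested. Ddit4, a stress-induced inhibitor of mTOR, rose from 80.1 ± 10 TPM (SD, n = 3) to 145 ± 2.23 TPM (SD, n = 3), and Sesn1, another inhibitor of mTOR signalling, from 42.6 ± 1.52 TPM (SD, n = 3) to 53.6 ± 3.70 TPM (SD, n = 3). Tsc22d3 rose from 74.9 ± 5.23 TPM (SD, n = 3) to 118 ± 2.67 TPM (SD, n = 3). Its product GILZ is known to slow the breakdown of SGK1, which the name of the list does not cover. Ddit4l, the paralog of Ddit4, fell from 10.1 ± 1.93 TPM (SD, n = 3) to 3.95 ± 1.46 TPM (SD, n = 3), opposite to Ddit4. The lipid phosphatases Mtmr2, Inppl1 and Inpp5d missed the threshold (log2 fold changes of 0.13, -0.05 and -0.09), and so did the mTOR inhibitor Deptor (-0.23). Mtmr2 passed without vehicle replicate 3 (adjusted p = 0.0450 from limma).

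Of 23 genes whose proteins SGK kinases or their relatives phosphorylate, 7 were in the table, 1 rose, 2 fell and 4 did not pass in limma. This too is near the 50.6% called over all genes tested, and the median log2 fold change was 0.13, against 0.05. Foxo6, a neuronal forkhead factor, fell from 23.8 ± 1.09 TPM (SD, n = 3) to 15.8 ± 1.11 TPM (SD, n = 3), and its log2 fold change of -0.56 was -0.24 with the GC correction. Ndrg2, a known SGK1 substrate abundant in astrocytes, fell from 618.5 ± 28.3 TPM (SD, n = 3) to 538 ± 7.27 TPM (SD, n = 3). Map2k4, a kinase of the JNK pathway, rose from 118.7 ± 5.85 TPM (SD, n = 3) to 132 ± 0.793 TPM (SD, n = 3). Nedd4l, the ubiquitin ligase that SGK1 keeps off the epithelial sodium channel, had 56.6 ± 7.0 TPM (SD, n = 3) under vehicle and 64.3 ± 2.29 TPM (SD, n = 3) under CORT and did not pass. Nor did Itch, a ubiquitin ligase, Mdm2, the ubiquitin ligase of p53, and the kinase Braf, with log2 fold changes of 0.13, 0.14 and 0.18. Without vehicle replicate 3, Nedd4l and Braf passed (adjusted p = 0.0176 and 0.0444 from limma). Ndrg2 did not pass with quantile normalization (adjusted p = 0.663 from limma). Map2k4 did not pass with the GC correction, with plain moderation or without any 1 of 5 libraries, vehicle replicate 3 being the exception (adjusted p up to 0.943 from limma).

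Of 39 channels, transporters and their scaffolds that SGK kinases are known to raise at the membrane, 12 were listed and 11 tested, with 3 higher, 1 lower and 7 that did not pass in limma, against 50.6% called and 25.8% higher over all genes tested. Slc2a1, the glucose transporter of the blood-brain barrier, rose from 73.7 ± 9.79 TPM (SD, n = 3) to 135 ± 5.51 TPM (SD, n = 3). The potassium channel gene Kcna5 rose from 1.47 ± 0.251 TPM (SD, n = 3) to 3.36 ± 0.312 TPM (SD, n = 3). Trpv4, a cation channel, had 1.00, 0.77 and 1.06 TPM in the vehicle libraries and 1.66, 1.76 and 4.04 TPM in the CORT libraries, the highest being CORT replicate 3. Slc9a3r2, a scaffold that joins SGK1 to transporters, fell from 44.8 ± 1.96 TPM (SD, n = 3) to 37.3 ± 1.98 TPM (SD, n = 3). The median log2 fold change of the 11 was 0.12, against 0.05 over all genes tested. Trpv4 did not pass with quantile normalization or without vehicle replicate 1, vehicle replicate 2 or CORT replicate 3 (adjusted p up to 0.0689 from limma). Slc9a3r2 did not pass with the GC correction (adjusted p = 0.317 from limma) or when replicate 1 of either group or replicate 3 of CORT was left out (adjusted p up to 0.0712).

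The mRNA of the glucocorticoid receptor, of which Sgk1 is a known target gene, was lower under CORT. Receptor action on Sgk1 was not measured here. Nr3c1, the glucocorticoid receptor gene, fell from 17.7 ± 0.506 TPM (SD, n = 3) to 12.8 ± 0.913 TPM (SD, n = 3). Hsd11b1, the enzyme that regenerates active glucocorticoid, fell from 39.8 ± 3.74 TPM (SD, n = 3) to 30.6 ± 0.494 TPM (SD, n = 3), and the stress peptide receptor gene Crhr1 from 7.73 ± 1.95 TPM (SD, n = 3) to 4.91 ± 0.588 TPM (SD, n = 3). Fkbp5, a co-chaperone that damps the receptor, was higher, with a log2 fold change of 1.37 (SE 0.07), close to the 1.23 of Sgk1 and below the 2.07 of Sgk3. Of 16 genes of the receptor system 6 were listed, and in limma 4 fell, 1 rose and 1 missed the threshold, where 24.7% of all genes tested fell and 25.8% rose. Of 31 receptor targets other than Sgk1, 26 were listed and 25 were higher, with a median log2 fold change of 0.59. Over all genes tested 25.8% were higher. The target list was chosen with earlier results of these data known and Fkbp5 counts in both lists, so nothing is read from this share. Crhr1 did not pass when replicate 1 of either group or replicate 2 of CORT was left out (adjusted p up to 0.0666 from limma).

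**Figure D4:**
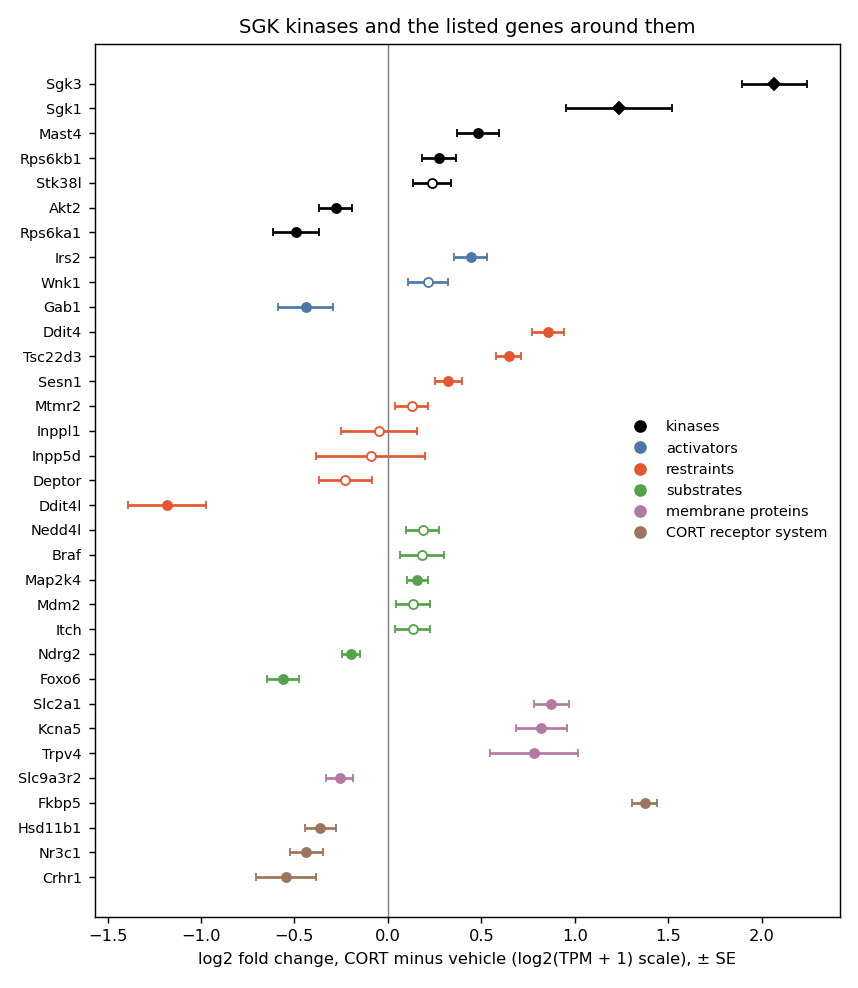
Log2 fold changes (CORT minus vehicle, log2(TPM + 1) scale) with SE for Sgk1 and Sgk3 (diamonds, chosen for this contrast) and for listed genes around them (circles, filled where the adjusted p from limma was under 0.05). Sgk3 (2.07) and Sgk1 (1.23) lie to the right of the other kinases, of which Mast4 is the highest.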

How the data were processed

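RNA-seq of hippocampus from 3 CORT-treated and 3 vehicle-treated mice was analysed. The authors made TruSeq libraries and trimmed reads with fastp. HISAT2, StringTie, RSEM and build GRCm39 appear in the submitters' processing notes, with versions not given in the sources used here. TPM values, as deposited, were computed by the authors per library. The same table holds the authors' fold (a ratio of CORT over control), their log2 fold change and their p-value from DESeq2, which were not used beyond checking that every one of the 2404 p-values was under 0.05. The control columns carry another name than the vehicle titles and were taken as vehicle. Column numbers are not tied to the sample titles and serve as replicate numbers.

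Log2(TPM + 1) was fitted with limma 3.58.1 in R 4.3.3 (trend and robust eBayes). The fit covered the 2241 genes with at least 1 TPM in at least 3 libraries, with Benjamini-Hochberg adjustment and a threshold of 0.05. It was also run on simulated independent values in which only a small share of genes was changed. That setting differs from this preselected set of genes, so the run does not give the rate of false calls here. All genes tested had already passed the authors' test of this contrast, so an adjusted p here is not independent of that choice, and p-values measure only the spread between these libraries. Members and lists were chosen with earlier results of these data known, and Sgk1 and Sgk3 are left out of the list counts. Named genes were all listed members of the AKT, activator, restraint and substrate lists, the 4 smallest p of the other pathway lists and the 5 nearest profiles. Clone and model names were left out of the nearest profiles. Some genes that this choice takes in are not reported here. Alternatives were other pseudocounts, filters and moderation, quantile normalization, leaving out each library, and removal of a spline of transcript GC content (4 degrees of freedom, GENCODE M21, 99.9% of genes matched). BLAST 2.17.0 searched the M21 transcripts for sequence shared with either kinase. Python 3.11.15, pandas 2.3.3, numpy 2.4.6 and matplotlib 3.10.9 were used.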

Additional observations from a re-analysis of the deposited data

How the results depend on the processing

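Sgk1 and Sgk3 were higher under CORT with every alternative tried. The log2 fold change was 0.97 to 1.46 for Sgk1 and 1.93 to 2.23 for Sgk3 when single libraries were left out, the lowest of each without vehicle replicate 2. With a pseudocount of 0.1 that of Sgk3 was 2.35. The Sgk3 share of Sgk1 was 4.65 percentage points higher under CORT, 4.41 to 4.89 without single libraries and 3.91 from TPM + 1. The number of genes changed was 1133, and 620 to 1187 without single libraries (620 without vehicle replicate 1, 644 without CORT replicate 2, 715 without CORT replicate 1 and 717 without CORT replicate 3). Of 84 other pathway genes tested 52 changed (50.6% of all genes tested did). Of these 52, 25 were on the list of receptor targets, which was chosen with earlier results known. Nothing is therefore read from the share of 52 in 84. Without single libraries 39 to 57 of the 84 changed. The cause of these shifts was not tested.

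With the GC correction the log2 fold changes turned to -0.00993 for Braf, 0.0372 for Inppl1, -0.0663 for Itch, -0.00483 for Map2k4, -0.00666 for Mdm2 and -0.0283 for Mtmr2. Without single libraries those of Inpp5d ranged from -0.36 to 0.18 and those of Inppl1 from -0.30 to 0.14. No paired analysis was made, since according to the methods the mice were divided into groups at random, and no pairing is mentioned. The titles number the vehicle samples 1 to 3 and the CORT samples 3 to 5. TPM gives no depth, so the limit that read number sets is unknown.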

Other observations

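The immediate-early genes, which neuronal activity switches on within minutes, were lower or did not pass. Of 20 such genes 12 were listed, 8 were lower, against 24.7% of all genes tested, and 4 did not pass in limma, with a median log2 fold change of -0.30. Arc, a synaptic regulator, differed in sign, with 89.3 ± 6.79 TPM (SD, n = 3) under vehicle and 103.3 ± 8.91 TPM (SD, n = 3) under CORT, and did not pass (adjusted p = 0.0559 from limma). Nr4a2, an orphan nuclear receptor, fell from 51.3 ± 0.478 TPM (SD, n = 3) to 31.6 ± 1.95 TPM (SD, n = 3), Fos from 17.9 ± 0.924 TPM (SD, n = 3) to 11.7 ± 1.18 TPM (SD, n = 3), Fosb from 8.44 ± 0.191 TPM (SD, n = 3) to 5.19 ± 0.914 TPM (SD, n = 3), and Egr1 from 106 ± 5.30 TPM (SD, n = 3) to 82.5 ± 5.38 TPM (SD, n = 3).

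The transcripts of the kinases differ in base composition. The longest GENCODE M21 transcript of Sgk3 (chromosome 1) has 38.9% GC over 3779 bases, the 87th lowest of 2401 listed genes, while that of Sgk1 (chromosome 10) has 48.6% over 3096 bases, near the median of 51.0%. With the GC correction the log2 fold change was 1.84 for Sgk3 and 1.14 for Sgk1. No match longer than 77 bases between the transcripts of Sgk1 and Sgk3 was found at 90% identity, and shorter ones are not reported here. The longest match to a transcript of any other gene was 225 bases for Sgk1 and 166 bases for Sgk3. Inside the Sgk3 gene the annotation places a processed pseudogene, Gm6195, and a small nuclear RNA gene, Gm22607, on the opposite strand. Neither was analysed here.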
